A study of Mus musculus with 6 samples.

Results

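Genes of 10 antioxidant enzymes were followed across neurons sorted from the mouse hippocampal dentate gyrus: the peroxiredoxins Prdx1 to Prdx6, the glutathione peroxidases Gpx1 and Gpx4, and the superoxide dismutases Sod1 and Sod2. The 10 were chosen by gene symbol from a table of 55367 genes, and each symbol was found in it. Every mouse carried Fos-iCreERT2 and Rosa26-LSL-tdTomato (TRAP2;Ai9) and had gone through a learned helplessness procedure (LH+), in which animals stop escaping after stress they cannot control. A Cre recombinase under control of the activity gene Fos marks cells that were active while its inducer was present, and the red cells were then sorted. The 3 NR libraries came from mice without running and the 3 Run libraries from mice given 28 days of voluntary running. All 6 libraries belong to 1 labelled batch. Age, sex and the number of cells or animals behind a library are not given in the sources used here, so p-values rest on library-to-library spread alone, some of which may be technical.

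Superoxide, a by-product of respiration and of oxidase enzymes, is turned into hydrogen peroxide by superoxide dismutases. Peroxiredoxins and glutathione peroxidases then reduce the peroxide, the former with electrons from thioredoxin (Prdx6 with those of glutathione) and the latter with glutathione. The enzymes divide the cell among them: Sod1, Prdx1, Prdx2 and Prdx6 act mainly in the cytosol, Sod2 and Prdx3 in mitochondria, Prdx4 in the endoplasmic reticulum, and Prdx5, Gpx1 and Gpx4 in several compartments. Brain tissue uses much oxygen and holds many polyunsaturated lipids, and Gpx4, which repairs lipid peroxides, is needed for neurons to survive. Several of these genes can be induced by the transcription factor NRF2, which binds the antioxidant response element in DNA.

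The core of that element, TGACNNNGC, was searched on both strands in the 250 bases before the annotated starts, to show which members carry it close by. RefSeq promoters of build GRCm38.p6 were given for 9 of the 10 genes (12 promoters), all but Prdx6. The core occurred in the promoters of Prdx1 and Sod1, each time on the strand opposite to the gene. It occurred in 2 of 9 members, against 11.52% of the 27025 genes searched over the same length, and in 10.2% of all 32851 promoters. The matches are shown with 16 bases on each side, on the plus strand, the core in capitals.
Prdx1, chr4:116685450-116685490: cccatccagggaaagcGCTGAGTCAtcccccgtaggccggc
Sod1, chr16:90220690-90220730: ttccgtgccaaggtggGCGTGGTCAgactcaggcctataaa
Distances are counted from the RefSeq start of each promoter, which differs from the gene start given for Prdx1 and Sod1 below. The Prdx1 match lay 125 to 133 bases before the start. It also contained the motif of AP-1, the factor formed by Fos and Jun proteins (TGACTCA). The Sod1 match lay 48 to 56 bases before the start and did not contain it. A match of letters shows neither binding nor use of the site.

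Expression was given as FPKM, fragments per kilobase of transcript relative to the library's mapped total, which allows levels of different genes to be compared. The summed FPKM of a library ranged from 473786 to 492021 and between 5426 and 7355 genes reached FPKM 1. Mitochondrially encoded genes took 10.5% to 15.96% of the sum. Read totals are not in the table, so the depth is unknown. Markers of the labelled cell type were uneven: FPKM 1 was reached throughout by 3 of 10 general neuron markers, by 0 of 10 markers of granule neurons and by 10 of 12 astrocyte markers. So it was by 6 of 10 endothelial, 4 of 8 mural cell, 3 of 10 oligodendrocyte and 1 of 10 microglial markers. Summed FPKM of the neuron markers was 273 to 988 in NR and 638 to 1058 in Run. That of the granule neuron markers was 44.7 to 330 in NR and 53.0 to 321 in Run, that of the astrocyte markers 8447 to 9986 and 5582 to 18088. In the same order the sums were 2006 to 4301 and 2022 to 2899.9 for endothelium, 919 to 2895 and 479 to 1523 for mural cells, 257 to 1545 and 183 to 998 for oligodendrocytes, and 55.04 to 572 and 179 to 927 for microglia. The mural markers Kcnj8 and Abcc9 were listed at 0 in all 6 libraries. The lowest neuron sum was in NR replicate 1, where the markers Syn1, Stmn2, Nefl, Eno2 and Gria2 were listed at 0, and the highest astrocyte sum was in Run replicate 2. The part of these other cells in the values below was not tested, and in such pools fewer cells of a type and less RNA per cell cannot be told apart.

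Most of the antioxidant enzyme genes were among the steadily detected genes of these libraries. Of the 10, 8 reached FPKM 1 in all 6 libraries, Prdx4 in 4 and Prdx3 in 3. Among all genes, 1751 did so in all 6, or 28.4% of the 6155 genes tested. Together the 10 genes held 0.588% ± 0.169 of a library's summed FPKM without running and 0.706% ± 0.195 with running (SD, n = 3 each). Their FPKM sum was 3801, 2215 and 2468 in the NR libraries, in the order of replicates 1, 2 and 3 used throughout, against 2612, 3084 and 4548 in the Run libraries. The groups overlapped, with the highest sum in Run replicate 3 and the lowest in NR replicate 2.

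By level, Prdx6 came first with a mean of 1048 ± 411 FPKM (SD over 6 libraries), rank 22 of 21587 nuclear protein-coding genes. Sod1 followed with 716 ± 238 (rank 39) and Gpx4 with 442 ± 162 (rank 86). These 3 genes made up 55.4% to 81.1% of the summed FPKM of the 10. Prdx1 (283 ± 162), Prdx5 (209 ± 62.5), Prdx2 (202 ± 156) and Gpx1 (110.2 ± 73.9) formed a middle range. The gene for mitochondrial Sod2 (28.9 ± 22.5) was low, and Prdx4 and Prdx3 alternated between clear expression and values at or near 0.

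Not every step of that order held within libraries. Sod1 was above Gpx4 in 6 of 6 libraries, with a log2 gap of 0.70 ± 0.45 (SD). Gpx1 was above Prdx4 in 6 of 6 too, but that gap, 2.43 ± 3.10, was smaller than its SD. Prdx6 exceeded Sod1 in 5 of 6, Run replicate 1 being the exception, with a gap of 0.50 ± 0.59. Gpx4 against Prdx1, Prdx1 against Prdx5 and Prdx5 against Prdx2 held in 4 of 6 each, with gaps smaller than their SD. Prdx2 was above Gpx1 in 5 of 6 and Prdx4 above Prdx3 in 5 of 6, but both gaps were also smaller than their SD. Prdx3 and Sod2 took turns, 3 libraries each.

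**Figure D1:**
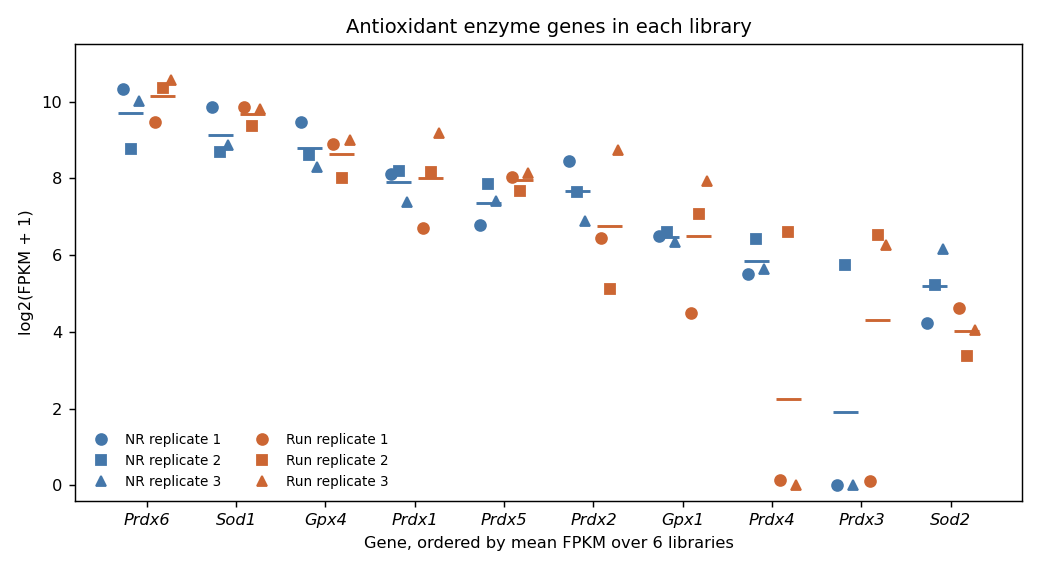
Level of each of the 10 genes as log2(FPKM + 1), ordered by mean FPKM; each point is 1 library (blue NR, orange Run, shape by replicate number) and each bar a group mean over 3 libraries. Prdx6, Sod1 and Gpx4 lie highest, and Prdx4 and Prdx3 each have 2 or 3 libraries at or near 0.

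**Figure D2:**
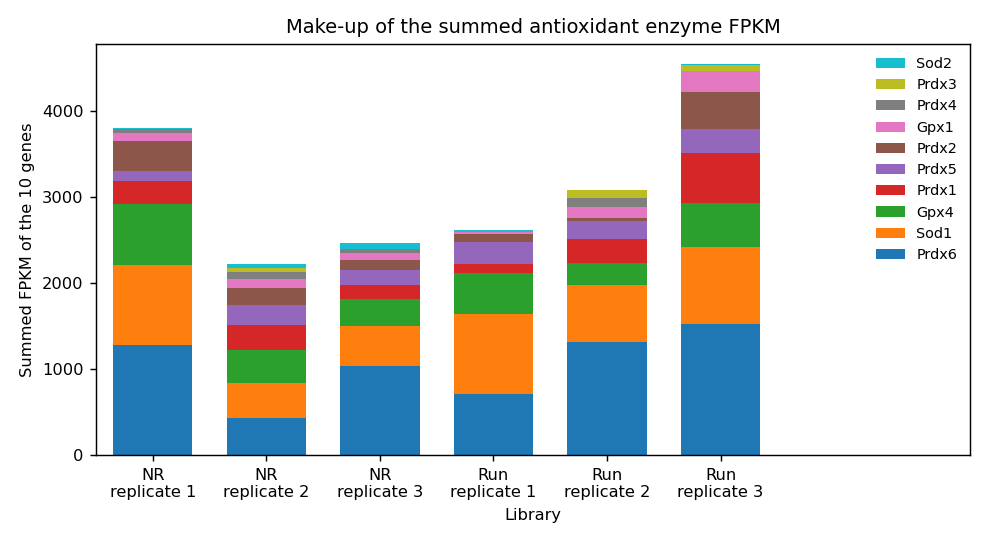
Summed FPKM of the 10 genes in each library, stacked by gene from the highest mean (bottom) to the lowest (top). The sums run from 2215 in NR replicate 2 to 4548 in Run replicate 3, and Prdx6, Sod1 and Gpx4 fill 55.4% to 81.1% of each bar.

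The comparison of Run with NR asked whether voluntary running altered these genes in the labelled cells. None of the 10 passed, and in none did the groups separate. Differences are Run minus NR on the scale log2(FPKM + 1), which understates changes of low values, tested with limma over 6155 genes. By limma, 0 of those 6155 genes had an adjusted p under 0.05 (0.00%), and 304 had an unadjusted p under 0.05 (4.94%). Of the 10 genes, 0 had an unadjusted p under 0.05 in limma, 6 had a positive and 4 a negative difference, and the median was 0.07. Over all tested genes 3007 differences were positive and 3148 negative, with a median of -0.03. The groups did not overlap for 0 of the 10 genes, against 8.95% of all tested genes (4.76% with Run above and 4.19% with Run below). The limma adjusted p of the 10 lay between 0.978 and 0.998. Their median residual SD was 0.87 on the log2 scale, against 1.98 over all tested genes. Among the marker lists that median ran from 0.85 (astrocyte) to 2.74 (microglia), so a low spread was not particular to the 10 genes. How the spread depends on level was not tested.

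Sod1 (chromosome 16, 90220754 to 90226329 in mm10, the build of all positions here), the copper and zinc dismutase of the cytosol, had 921, 412 and 467 FPKM in the NR libraries against 935, 660.4 and 902 in the Run libraries. NR replicate 1 lay among the Run libraries and the other two NR libraries below them, so the groups overlapped. The means were 600.04 ± 279.7 and 833 ± 150.03 (SD, n = 3 each). The log2 difference was 0.55 ± 0.38 (SE), with a 95% interval from -0.35 to 1.45 and a limma adjusted p = 0.978. Without NR replicate 1 the difference was 0.91 and the limma adjusted p = 0.785. The Run libraries were then all above the remaining NR libraries, and groups did not overlap for 17.4% of all tested genes. Without NR replicate 2 the difference was 0.33 (limma adjusted p = 0.996). Sod1 shares 650 bases with Scaf4 on the other strand, where reads cannot be told apart without stated use of strand. Scaf4 was above 0 only in NR replicate 2, at 7.53 FPKM.

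Sod2 (chromosome 17, 13006846 to 13040063), the manganese dismutase of mitochondria, had 17.7, 36.2 and 70.8 FPKM in the NR libraries against 23.7, 9.29 and 15.6 in the Run libraries. NR replicate 1 again lay within the Run range, and the other two NR libraries above it. The log2 difference was -1.19 ± 0.97 (SE; limma adjusted p = 0.978), and with 1 library left out it ranged from -1.68 without NR replicate 1 to -0.71 without NR replicate 3. Sod1 exceeded Sod2 by 52.1, 11.4 and 6.59 times in NR and by 39.5, 71.1 and 57.7 times in Run. The lowest 2 ratios were those of NR replicates 2 and 3, while NR replicate 1 lay within the range of Run. These ratios were formed after the values were seen and were not tested.

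Gpx4 (chromosome 10, 80047166 to 80056439), the selenoenzyme that reduces lipid peroxides in membranes, had 708, 386 and 312 FPKM in the NR libraries against 475.5, 257 and 511 in the Run libraries. Its highest library was NR replicate 1 and its lowest Run replicate 2. The log2 difference was -0.15 ± 0.46 (SE), with a 95% interval from -1.23 to 0.93 (limma adjusted p = 0.983). Its sign rested on single libraries: it was 0.19 without NR replicate 1 and 0.16 without Run replicate 2, and between -0.40 (without NR replicate 3) and -0.24 (without NR replicate 2) without any one of the other four.

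Gpx1 (chromosome 9, 108338903 to 108340343), the selenoenzyme that removes soluble peroxides, had 89.8, 95.6 and 79.5 FPKM in the NR libraries against 21.6, 132 and 242 in the Run libraries. The 3 NR libraries were close together, with a mean of 88.3 ± 8.13, and lay between the lowest and the upper Run libraries, whose mean was 132.03 ± 110.2 (SD, n = 3 each). The log2 difference was 0.02 ± 0.94 (SE), with a 95% interval from -2.20 to 2.24 (limma adjusted p = 0.998), and it was -0.70 without Run replicate 3 and 1.02 without Run replicate 1. It was also negative without NR replicate 3 (-0.055), without Run replicate 2 (-0.26), after quantile normalization (-0.033) and after rescaling without mitochondrial genes (-0.0070).

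Prdx1 (chromosome 4, 116685544 to 116700822), an abundant cytosolic peroxiredoxin, had 277, 289 and 166 FPKM in the NR libraries against 104, 285 and 575 in the Run libraries. Like Gpx1 it was lowest in Run replicate 1 and highest in Run replicate 3, with the NR libraries in between. The ratio of Prdx1 to Gpx1 stayed between 2.09 and 4.83 over the 6 libraries, whereas Gpx1 itself varied 11.2-fold and Prdx1 5.51-fold. The log2 difference of Prdx1 was 0.12 ± 0.67 (SE; limma adjusted p = 0.988), and it was -0.46 without Run replicate 3 and -0.13 without NR replicate 3. It was 0.77 without Run replicate 1, 0.23 without NR replicate 1, 0.26 without NR replicate 2 and 0.05 without Run replicate 2.

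Prdx2 (chromosome 8, 84969587 to 84974834), the peroxiredoxin known as the main one of neurons, had 350.1, 199 and 118 FPKM in the NR libraries against 85.7, 33.6 and 426 in the Run libraries. It varied 12.7-fold, the most of the 8 genes detected throughout, and 2 of the 3 Run libraries lay below every NR library while Run replicate 3 lay above them. The log2 difference was -0.90 ± 0.97 (SE; limma adjusted p = 0.978). Without Run replicate 3 it was -1.89 (limma adjusted p = 0.8997). The groups then did not overlap, as was so for 18.1% of all tested genes in that fit. Without Run replicate 2 the difference was -0.077 and without NR replicate 1 -0.51. The 3′ end of Prdx2 overlaps Junb on the other strand by 351 bases. Junb, a Fos partner, had 351, 90.4 and 616 FPKM in the NR libraries against 284, 106 and 339 in the Run libraries. Without stated use of strand, reads of Prdx2 and Junb cannot be told apart there. The same holds for 181 bases shared with Rnaseh2a on the other strand, which was above 0 only in NR replicate 1, at 39.4 FPKM.

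Prdx6 (chromosome 1, 161240112 to 161251219), a peroxiredoxin with 1 catalytic cysteine that also repairs phospholipids and is known to be high in astrocytes, had 1282, 430 and 1037 FPKM in the NR libraries against 706, 1314 and 1519 in the Run libraries. It was the highest of the 10 genes in every library but Run replicate 1, where Sod1 was. NR replicate 2 was the lowest, and the groups overlapped. The means were 916 ± 439 and 1179.8 ± 423 (SD, n = 3 each), the log2 difference 0.43 ± 0.49 (SE; limma adjusted p = 0.978). Without NR replicate 2 the difference was -0.041, without Run replicate 3 0.21, without NR replicate 1 0.75 and without Run replicate 1 0.77.

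Prdx5 (chromosome 19, 6906697 to 6910106), found in mitochondria, peroxisomes and cytosol, had 109.6, 230.3 and 169 FPKM in the NR libraries against 259, 204 and 280.02 in the Run libraries. It varied 2.56-fold, and only NR replicate 2 reached into the Run range. The means were 169.7 ± 60.3 and 248 ± 39.2 (SD, n = 3 each), and the log2 difference was 0.60 ± 0.46 (SE), with a 95% interval from -0.49 to 1.68 and a limma adjusted p = 0.978. Without NR replicate 2 the difference was 0.85, whereas without NR replicate 1 it was 0.31. In the former fit the Run libraries were all above the NR libraries, and groups did not overlap for 19.1% of all tested genes. Prdx5 shares 409 bases with Trmt112 on the other strand, and without stated use of strand their reads cannot be told apart there.

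Prdx3 (chromosome 19, 60864051 to 60874556), the peroxiredoxin confined to mitochondria, was listed at 0, 52.3 and 0 FPKM in NR and had 0.0825, 91.3 and 76.2 in Run. Run replicates 2 and 3 and NR replicate 2 expressed it clearly, and the other three libraries were at or near 0. The log2 difference of 2.39 ± 2.42 (SE) had a 95% interval from -3.33 to 8.11 (limma adjusted p = 0.978). It was 4.49 without Run replicate 1, 4.30 without NR replicate 2 and between 1.28 and 1.44 without any one of the other four libraries. It was 3.75 with 0.1 added to FPKM before the logarithm and 1.27 with 10 added.

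Prdx4 (chromosome X, 155323918 to 155340754), the peroxiredoxin of the endoplasmic reticulum, had 44.6, 84.5 and 48.7 FPKM in the NR libraries against 0.0952, 96.5 and 0 in the Run libraries. All 3 NR libraries held it, whereas Run replicate 2 had the highest value of all and the other two Run libraries were at or near 0. It had the smallest unadjusted p of the 10 in limma (0.101), with a log2 difference of -3.61 ± 1.91 (SE), a 95% interval from -8.14 to 0.92 and a limma adjusted p = 0.978. Without Run replicate 2 the difference was -5.79, the unadjusted p 0.0031 and the limma adjusted p = 0.357. In that fit 364 of the 6155 tested genes had an unadjusted limma p under 0.05. Groups then did not overlap for Prdx4, as was so for 20.4% of all tested genes. The difference was -2.55 without Run replicate 1 and -2.49 without Run replicate 3, with limma adjusted p of 0.909 and 0.944. With 0.1 or 10 added to FPKM before the logarithm it was -5.53 or -1.61. Since a listed 0 may stand for an estimate that failed, absence of the transcript is not inferred.

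**Figure D3:**
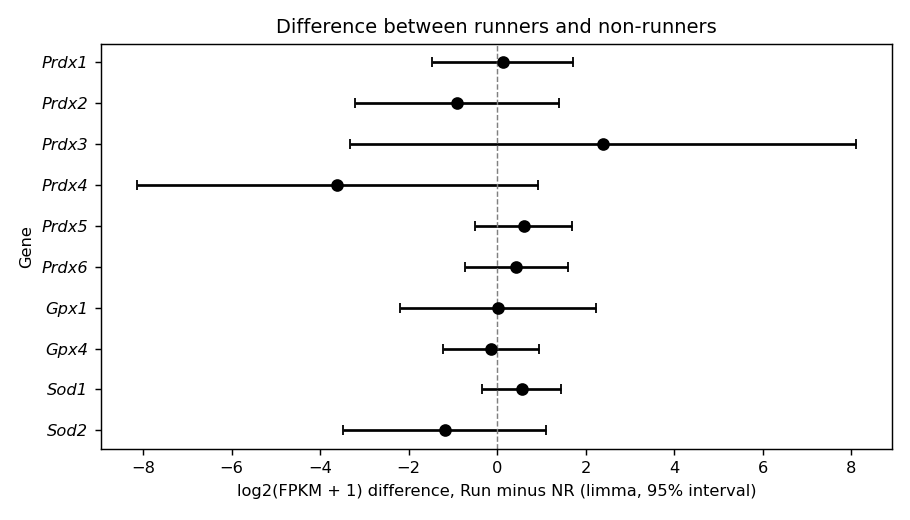
Difference between Run and NR for each of the 10 genes on the log2(FPKM + 1) scale; points are limma estimates over 3 libraries a group and lines their 95% intervals. Every interval includes 0, and those of Prdx3 and Prdx4 are the widest.

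No library was high or low in all 10 genes. Run replicate 3 had the highest value of 5 genes (Prdx1, Prdx2, Prdx5, Prdx6 and Gpx1) and the lowest of 1, Prdx4. Run replicate 2 had the highest value of Prdx3 and Prdx4 and the lowest of 3, Prdx2, Gpx4 and Sod2. The mean log2(FPKM + 1) over the 10 genes was 6.93, 7.37 and 6.70 in the NR libraries against 5.88, 7.23 and 7.37 in the Run libraries, lowest in Run replicate 1, where Prdx3 and Prdx4 were both near 0. Among 1743 other genes detected throughout, the pattern nearest to this mean over the 6 libraries was that of Mfge8 (Pearson r = 0.961), Syt11 (0.959) and Gpr37l1 (0.957). Over 6 points and so many genes, coefficients of this size are a description only. Mfge8 had 126, 147 and 84.2 FPKM in the NR libraries against 10.9, 264 and 236 in the Run libraries. The astrocyte marker list, on the same log2 scale, had 7.58, 7.78 and 8.13 in the NR libraries against 6.86, 8.17 and 7.66 in the Run libraries, also lowest in Run replicate 1. The oligodendrocyte list was lowest there too, at 2.21, and the neuron list was highest there, at 5.84. Likeness of the mean of the 10 genes to any marker list was not tested.

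Several of the members have processed pseudogenes whose sequence is nearly the same, so that reads may be shared between gene and copy and the split between them is uncertain. Gpx4-ps2 (chromosome 10, 45875291 to 45876086) is 99.7% identical to a Gpx4 transcript over 762 bases. It had 88.2, 46.7 and 33.8 FPKM in the NR libraries against 55.2, 28.8 and 60.4 in the Run libraries, between 10.8% and 12.5% of Gpx4 in every library. Gm8566, 97.8% identical to Sod1 over 465 bases, stayed between 0.920% and 1.08% of Sod1. Prdx2-ps1 stayed between 1.01% and 1.69% of Prdx2, and the Prdx1 copies Gm21399 and Gm7204 together between 2.54% and 3.63% of Prdx1. Each copy was thus high where its gene was high. Whether the copies are transcribed or took up reads of the genes was not tested. With the copies added to their genes, the log2 difference of Gpx4 was -0.15, of Sod1 0.55, of Prdx1 0.13 and of Prdx2 -0.91.

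**Figure D4:**
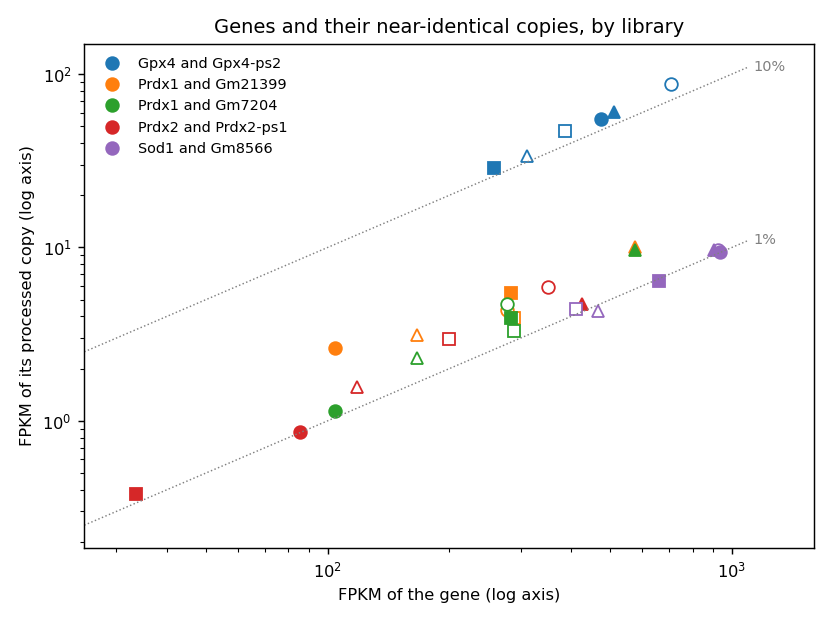
FPKM of 5 processed copies against FPKM of the gene each copies, on log axes; each point is 1 library (open NR, filled Run, shape by replicate number) and dotted lines mark 1% and 10% of the gene. The points of each pair run along these lines, Gpx4-ps2 near 10% and the other copies near 1% to 2%.

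The genes of the lists around the members were detected less evenly than the members, but about as evenly as all tested genes. Apart from the members, 7 lists held 118 different symbols, of which 116 were in the table and 59 were tested. The symbols not found, Ero1a and Ero1b, are other names of Ero1l and Ero1lb, which were found. Of the 59, 16 reached FPKM 1 in all 6 libraries, against 28.4% of all tested genes. By limma, 0 of the 59 passed the adjusted threshold and 3 had an unadjusted p under 0.05 (4.94% over all tested genes). Differences were positive for 28 and negative for 31, with a median of -0.07. The groups did not overlap for 5 of the 59, against 8.95% of all tested genes.

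Electrons reach peroxiredoxins through thioredoxin. Of 13 such partners 9 were tested, 4 positive and 5 negative. Txn2, the mitochondrial thioredoxin, had 125 ± 61.6 FPKM in the NR libraries against 212 ± 51.9 in the Run libraries (SD, n = 3 each), and Txndc17, a small thioredoxin-like protein, 165 ± 75.8 and 171 ± 103. Txnl1, a thioredoxin-like protein bound to the proteasome, had 67.6, 32.2 and 24.5 in the NR libraries against 12.8, 13.3 and 0 in the Run libraries, every Run library being below every NR library (log2 difference -2.73 ± 1.41 SE; limma adjusted p = 0.978). Sesn3, a sestrin, had 0.0042, 0.0061 and 1.68 in the NR libraries against 8.11, 16.2 and 0 in the Run libraries.

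Of 25 genes of glutathione synthesis, transfer and recycling 18 were tested, 6 positive and 12 negative. The glutathione transferases Gstm1 and Gstm5 rivalled the highest members, at 1305 ± 318 and 755 ± 174 FPKM in the NR libraries against 1292 ± 636 and 746 ± 343 in the Run libraries. Oplah, which recycles the glutathione breakdown product oxoproline, had 43.9, 12.1 and 20.6 in the NR libraries against 0.0485, 0 and 0.766 in the Run libraries. Its log2 difference was -4.25 ± 1.09 (SE), with an unadjusted p of 0.0060 and a limma adjusted p = 0.335. Gsto1, a transferase of the omega class, had 0.0283, 68.8 and 0.0477 in the NR libraries against 99.6, 114.5 and 176 in the Run libraries (log2 difference 4.91 ± 1.76 SE; limma adjusted p = 0.821). For both genes the groups did not overlap, though Gsto1 was also well expressed in NR replicate 2.

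Among 15 other peroxidases, repair enzymes and chaperones, 6 were tested, 5 positive and 1 negative. Park7, a sensor of oxidative stress, had 176 ± 63.04 FPKM in the NR libraries against 227 ± 81.1 in the Run libraries. Cat, the catalase of peroxisomes, had 0, 95.5 and 126 in the NR libraries against 0.433, 163 and 83.1 in the Run libraries, present and near 0 in both groups. Msrb2, a mitochondrial reductase of oxidised methionine, had 3.26, 37.6 and 59.8 in the NR libraries and was listed at 0 in all 3 Run libraries (limma adjusted p = 0.466), while its relative Msrb1 had 0, 1.78 and 0 in the NR libraries against 4.19, 2.08 and 0 in the Run libraries.

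Gpx1 and Gpx4 contain selenocysteine. Of 15 genes of other selenoproteins, selenoprotein synthesis or selenium supply 10 were tested, 7 positive and 3 negative. The tested genes included the selenoproteins Selenow, Selenok, Selenof, Selenom and Selenot, so the count does not describe synthesis alone. Selenow, a small selenoprotein, had 551, 547 and 632 FPKM in the NR libraries against 1224, 757 and 736 in the Run libraries, every Run library above every NR library (log2 difference 0.61 ± 0.30 SE; limma adjusted p = 0.978). Selenop, the carrier that brings selenium to the brain's cells, had 699, 336 and 382 in the NR libraries against 281, 75.5 and 348 in the Run libraries, with overlap (log2 difference -1.20 ± 0.66 SE; limma adjusted p = 0.978).

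Of 15 regulators and targets of NRF2, 8 were tested, 2 positive and 6 negative. Among the negative ones, Txnrd1, Srxn1, Gclm and Slc7a11 were already counted in the thioredoxin or glutathione lists. Sqstm1, an autophagy receptor that competes for the NRF2 inhibitor, had 292 ± 130.3 FPKM in the NR libraries against 300.4 ± 127.6 in the Run libraries. Blvrb, a reductase of haem breakdown, had 39.5, 5.09 and 0 in the NR libraries against 44.4, 18.3 and 119 in the Run libraries, and Gclm, a subunit of the enzyme that starts glutathione synthesis, 45.4, 14.3 and 20.6 in the NR libraries against 9.82, 0 and 25.4 in the Run libraries. Of 16 genes that supply NADPH, which keeps thioredoxin and glutathione reduced, 9 were tested, 3 positive and 6 negative. Idh2, the NADPH-forming dehydrogenase of mitochondria, had 182 ± 31.2 in the NR libraries against 124 ± 115.7 in the Run libraries, and Taldo1, of the pentose phosphate pathway, 141 ± 75.1 and 100.2 ± 113.2.

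Of 24 symbols of oxidant sources, with Ero1l and Ero1lb each entered under an older and a newer name, 22 were in the table. Of these 3 were tested, 1 positive and 2 negative. Listed at 0 in all 6 libraries were 9, among them Nox1, Nox3 and Nox4. Cyba, a subunit shared by NADPH oxidases, had 67.7, 68.9 and 31.95 FPKM in the NR libraries against 0, 89.7 and 0 in the Run libraries, and was high and at or near 0 in the same libraries as Prdx4. Maob, the monoamine oxidase of astrocytes, had 172, 15.0 and 170.5 in the NR libraries against 73.4, 108 and 0 in the Run libraries.

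**Figure D5:**
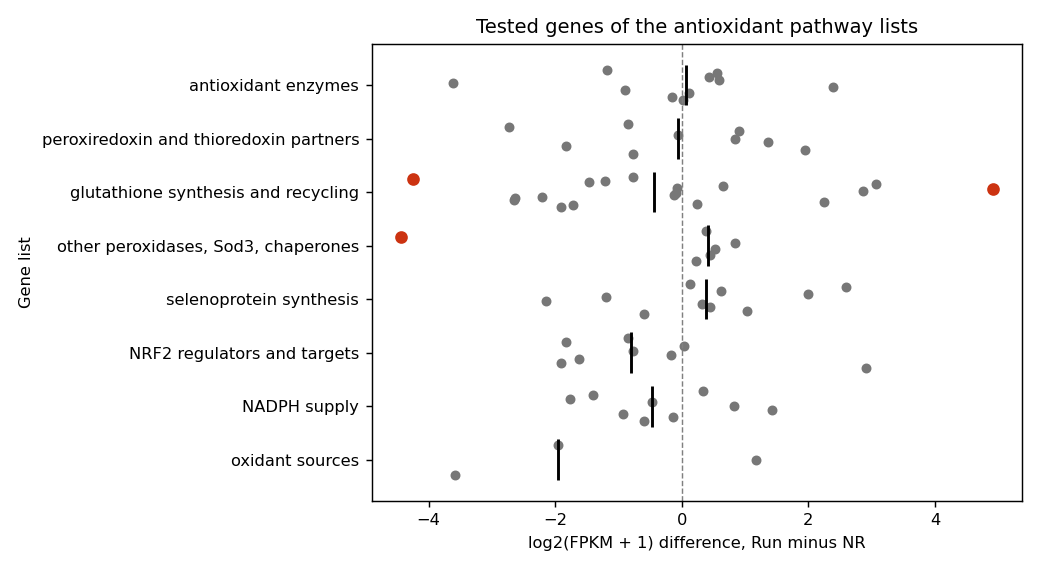
Difference between Run and NR on the log2(FPKM + 1) scale for each tested gene of the 10 antioxidant enzymes and 7 lists around them; a point is 1 gene, red where the unadjusted limma p was under 0.05, and black bars are list medians. Red points are Oplah, Gsto1 and Msrb2, and points of every list lie on both sides of 0.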

How the data were processed

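The authors deposited FPKM values, 1 column per library, with no counts. Build mm10 and the tools StringTie 2.1.7, STAR 2.7.5c and Trimmomatic 0.39 are named per the submitters' processing notes. Which tool made the values, the annotation and any use of strand are not given in the sources used here. Groups and replicate numbers came from the sample titles.

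FPKM was tested as log2(FPKM + 1), for genes that reached FPKM 1 in 3 or more of the 6 libraries, with limma 3.58.1 in R 4.3.3 (mean-variance trend, 2-sided, Benjamini-Hochberg adjustment over all tested genes, threshold 0.05). The fit was also run on simulated data, and the outcome of that run is not used here. Coordinates are from GENCODE M21 (mm10). Copies were found with blastn 2.17.0 (at least 90% identity over 300 bases, a length set after seeing the hits), and Prdx2-ps1 by its symbol. Tables and plots used Python 3.11.15, pandas 2.3.3 and matplotlib 3.10.9.

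The members and lists were chosen with earlier results of these data known. Named were all 10 members, from each other list the 2 tested genes with the highest mean FPKM and the 2 with the smallest p, any gene past the adjusted threshold (0 passed), and 3 genes by likeness. Genes named for other reasons were chosen after their values were seen. Alternatives covered the pseudocount, filter, scaling, trend, replicate block, each library left out and, added after seeing the data, copies summed with their genes.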

Additional observations from a re-analysis of the deposited data

How the results depend on the processing

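No gene passed the adjusted threshold of limma in any of 15 alternative fits, and the limma adjusted p of the 10 genes ranged from 0.357 to 1 over them. Of 148 such values, 138 kept the sign of the difference and 10 did not, and 6 genes (Prdx2, Prdx3, Prdx4, Prdx5, Sod1 and Sod2) kept it throughout. Gpx1 turned to -0.033 after quantile normalization and to -0.0070 after rescaling without mitochondrial genes. With 1 library left out, differences ranged from -0.70 to 1.02 for Gpx1, from -0.46 to 0.77 for Prdx1, from -0.40 to 0.19 for Gpx4 and from -0.041 to 0.77 for Prdx6. The others ranged from -1.89 to -0.077 for Prdx2, 1.28 to 4.49 for Prdx3, -5.79 to -2.49 for Prdx4, 0.31 to 0.85 for Prdx5, 0.33 to 0.91 for Sod1 and -1.68 to -0.71 for Sod2. Between 0 and 4 of the 10 genes then had groups that did not overlap, against 16.4% to 20.4% of all tested genes. Every gene but Prdx1 and Gpx4 separated in some such fit, so this was not particular to the genes described above. The median difference of the 10 genes, 0.07, then ranged from -0.39 to 0.51. Genes past both an unadjusted p of 0.05 and a log2 change of 1 either way numbered 149 higher and 152 lower in Run. These counts ranged from 131 to 226 (without NR replicate 2) and from 136 to 221 with 1 library left out. They were 34 and 26 when all 6 libraries had to reach FPKM 1, over 1751 genes, without Prdx3 and Prdx4. Same-numbered NR and Run libraries deviated together with r of 0.021, 0.0042 and 0.018, each number's best match but under the 0.1 set for pairing. With the replicate number as a block, 0 genes passed, 116 were higher and 132 lower, Prdx4 had an unadjusted p of 0.078 and the median difference of the 10 was 0.07. The depth is unknown, so whether values at 0 reflect too few reads was not tested.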

Other observations

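Some genes close to the members fell outside the test because fewer than 3 libraries reached FPKM 1. They were chosen after their values were seen. Ccs, the chaperone that loads copper into Sod1, had 0.948, 95.9 and 66.3 FPKM in NR and was listed at 0 in all 3 Run libraries. Sod3, the extracellular dismutase, had 20.4, 0 and 0.0125 in the NR libraries against 0.0123, 12.7 and 0 in the Run libraries. Gpx3, the secreted glutathione peroxidase, had 0, 111 and 0 in the NR libraries against 0.0336, 0 and 44.7 in the Run libraries. Hmox1, the inducible haem oxygenase and an NRF2 target, exceeded 0 only in Run replicate 1, at 61.7. Gsr, which regenerates glutathione, was above 0 only in Run replicate 3, at 23.3, and Txnrd2, the mitochondrial thioredoxin reductase, only in NR replicate 2, at 17.3.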
